A study of Mus musculus with 8 samples.

Results

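The 39 genes described here make up the machinery of DNA replication and the switch into S phase, and they were taken by their gene symbols from a table of 54532 genes. They code for proteins that license replication origins (*Orc1*, *Orc6*, *Cdc6*, *Cdt1*), the MCM helicase (*Mcm2* to *Mcm7*), the factors that activate it (*Mcm10*, *Cdc45*, *Gins1* to *Gins4*), the polymerases and primase (*Pola1*, *Pola2*, *Prim1*, *Prim2*, *Pole*, *Pole2*, *Pold1*), and the sliding clamp, its loader and a subunit of the protein that coats unwound DNA (*Pcna*, *Rfc3*, *Rfc4*, *Rfc5*, *Rpa2*). The others mature Okazaki fragments (*Fen1*, *Lig1*), supply nucleotides (*Rrm1*, *Rrm2*, *Tyms*), rebuild chromatin and its methylation behind the fork (*Chaf1a*, *Chaf1b*, *Uhrf1*), or drive cells from G1 into S phase (*Ccne1*, *Ccne2*, *E2f1*). All 39 symbols were found, each as 1 row, and none was at 0 FPKM in any library.

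In dividing cells the origin recognition complex, CDC6 and CDT1 place the MCM ring on DNA in G1, and CDC45 and GINS join it at the start of S phase to form the active helicase. Most of these genes are transcribed late in G1, when cyclin E and its kinase free the E2F factors from the retinoblastoma proteins, and their messages decline when cells leave the cycle. Cardiac fibroblasts are largely out of the cycle in the healthy heart and divide after an infarction, while adult cardiomyocytes divide very little.

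The cells were MICFs, the paper's name for cardiac fibroblasts from the infarct area of C57BL/6 mouse hearts taken 6 days after surgery. By staining in the paper, such cells were mostly fibroblasts, with macrophages and a few endothelial cells among them. They were infected with lentiviruses for doxycycline-induced MGT (*Mef2c*, *Gata4* and *Tbx5* in a single construct), *Myocd*, *Sall4* and eGFP. All 4 groups therefore carried the same overexpressed factors, labelled MGTMyoS, and no group without them was analysed here. For the *in vivo* groups the infected cells were injected into the left ventricle of C57BL/6 mice just after ligation of the left anterior descending artery, and the mice received doxycycline and TMM, a mixture of tacrolimus, methylprednisolone and mycophenolate mofetil. The infarctions were made in male mice aged 8 weeks. For the *in vitro* groups a portion of the infected cells stayed in culture. The medium held serum, serum replacement, doxycycline, the TGF-β receptor inhibitor SB431542 and the JAK inhibitor baricitinib. Which libraries shared a pool of infected cells is not given, and the groups were fitted as independent. The eGFP+ cells were sorted at Day 7 (1 week) and Day 14 (2 weeks), with 2 libraries in each of the 4 groups. The hearts were chopped and digested before sorting, a step that the paper does not describe for the cultures. Host tissue, its digestion, immunosuppression, serum and the 2 inhibitors differed together between *in vivo* and *in vitro* samples, so their parts in any difference cannot be told apart.

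Each library held between 12304242 and 14546904 fragments on genes. The 12 macrophage markers were all above 0 in every library, with a summed FPKM (fragments per kilobase of transcript, scaled to the size of the library) of 2009 to 3150 *in vivo* and 4951 to 6073 *in vitro*. The 10 fibroblast markers were also all present, summing to 10999.9 to 14006 *in vivo* and 2410 to 3630 *in vitro*. The 7 cardiomyocyte markers summed to 15.2 to 43.4 *in vivo*, 159 to 180 *in vitro* at 1 week and 1025 to 1216 *in vitro* at 2 weeks, and the 7 endothelial markers to 72.2 to 82.5 *in vivo* and 20.5 to 54.9 *in vitro*. Markers of T cells, B cells, neutrophils and erythroid cells summed to at most 5.89 in any library. Such sums hide markers that went the other way. By the log2 fold change described below, 9 macrophage markers were lower *in vivo* and 3 higher at 1 week, and 11 and 1 at 2 weeks. At each week 9 fibroblast markers were higher *in vivo* and 1 lower, 6 cardiomyocyte markers were lower and 1 higher, and all 7 endothelial markers were higher. These markers moved with the groups compared below, and their part in the replication gene differences was not tested. In bulk RNA a smaller share of cycling cells and less message per cycling cell cannot be told apart.

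Differences are log2 fold changes on log2(FPKM + 0.1), from limma fitted over 15708 genes, and the Benjamini-Hochberg adjusted p is over all of them. A gene was called when its adjusted p was under 0.01 and its absolute log2 fold change over 1, and a looser count took an adjusted p under 0.05 with no fold limit. All 39 replication genes passed the filter on low values (2 or more libraries at 0.5 FPKM or above). Nothing in the sources used here says whether the 2 libraries of a group came from separate animals or cultures, so the p-values measure only the spread between these libraries. Fragment counts were low for some replication genes. The lowest was 7 fragments, for *Fen1*, 14 genes had under 50 fragments in some library, and 19 had at least 100 in all 8.

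The replication genes stood highest *in vitro* at 1 week and lowest *in vivo* at 2 weeks. By group mean, 34 of 39 had their highest FPKM *in vitro* at 1 week and 29 of 39 their lowest *in vivo* at 2 weeks. These ranks were not counted over all genes tested. With each gene set to 100% at its *in vitro* 1 week mean, the median over the 39 genes was 101% and 99.4% in the 2 libraries of that group, which average 100% by construction. It was 67.1% and 66.1% *in vivo* at 1 week, 58.7% and 55.7% *in vitro* at 2 weeks, and 42.5% and 45.2% *in vivo* at 2 weeks. On this median the 4 groups did not overlap. The summed FPKM of the 39 genes followed the same order, with 282 and 281 *in vitro* and 199 and 194 *in vivo* at 1 week, and 181 and 191 *in vitro* and 150.5 and 147 *in vivo* at 2 weeks.

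**Figure D1:**
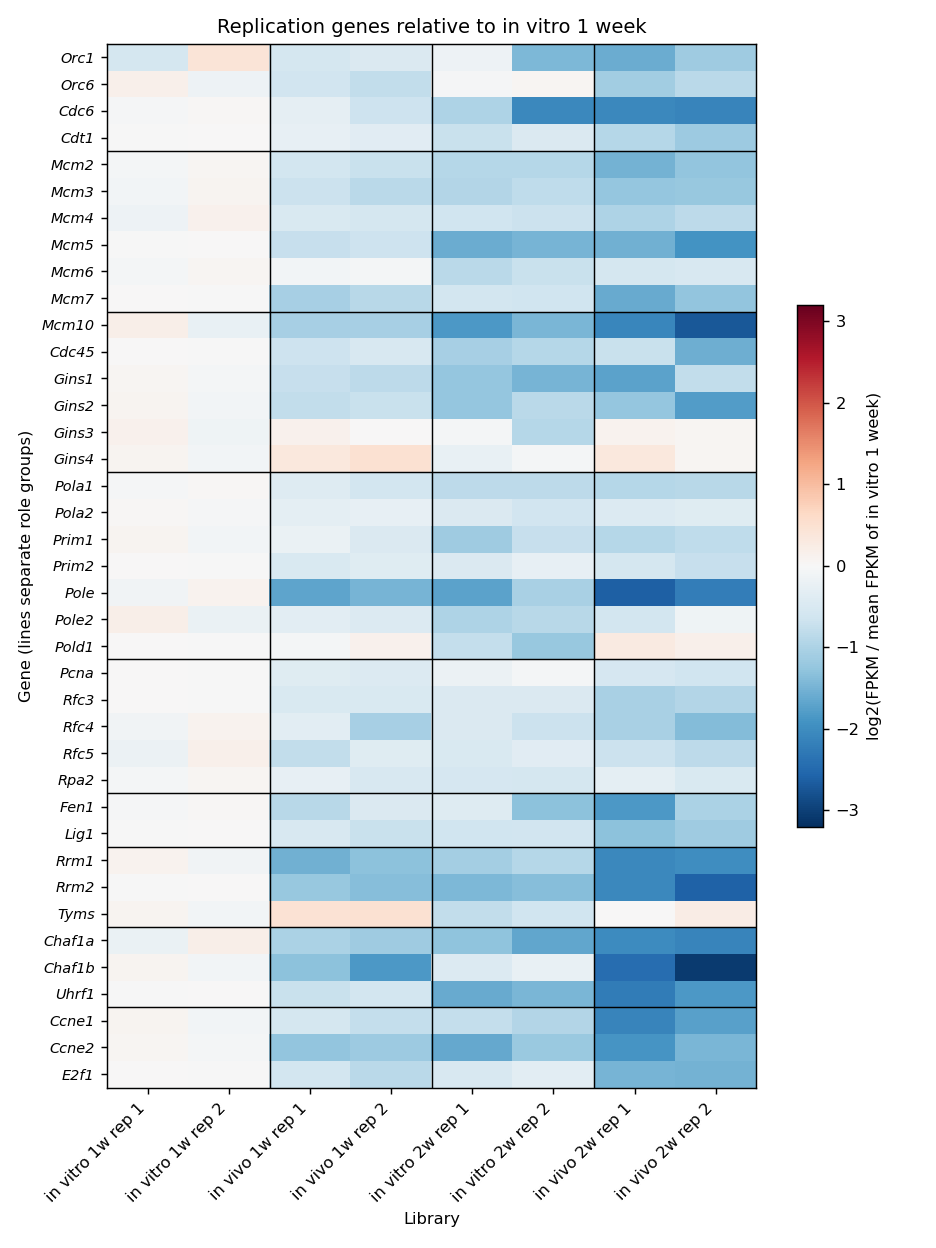
Level of each of the 39 genes (rows, grouped by role between the black lines) in each of the 8 libraries (columns, 1w and 2w for 1 and 2 weeks), as log2 of its FPKM over its mean FPKM in vitro at 1 week, blue for lower and red for higher. Most rows turn from white in the 2 in vitro 1 week libraries to blue in the others, deepest in vivo at 2 weeks, while the rows of Gins4, Tyms and Pold1 hold red cells in vivo.

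At 1 week, 35 of the 39 genes had a negative log2 fold change *in vivo* against *in vitro*, with a median of -0.59 (1.5-fold lower) beside -0.0058 over all genes tested. By limma 5 genes were called lower *in vivo* (12.8%, where 5.07% of all genes tested were): *Pole*, *Rrm1*, *Rrm2*, *Chaf1b* and *Ccne2*. None was called higher by limma or by limma voom on fragment counts (7.79% of all genes were by limma), and 2 had an unadjusted p under 0.05 in that direction. Over both directions 29 of the 39 had such a p by limma, as did 7942 of the 15708 genes tested. At the looser count 25 were lower (64.1%, against 20.6% of all genes) and 2, *Gins4* and *Tyms*, were higher (against 21.4%). Both *in vivo* libraries lay below both *in vitro* libraries for 34 of the 39 (87.2%), and above them for 2, where over all genes tested the shares were 36.6% and 36.2%. The count of called genes was 3 when either *in vivo* library of 1 week was left out and 2 when either *in vitro* library was, and the looser count was 13 without *in vitro* replicate 2 and 15 without *in vivo* replicate 2.

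At 2 weeks the median lay nearer 0 and more genes stood on the higher side. The log2 fold change was negative for 29 genes, with a median of -0.42 (1.34-fold lower) beside -0.0034 over all genes tested. *Rrm1*, *Chaf1b*, *Ccne1* and *E2f1* were called lower (10.3%, where 8.05% of all genes tested were), and *Pold1* was called higher (2.56%, where 9.02% were). At the looser count 14 were lower (35.9%, against 25.2%) and 4, *Mcm6*, *Gins4*, *Pold1* and *Tyms*, were higher (against 24.6%). The share called lower at 2 weeks was thus near that over all genes, and both shares on the higher side were under it. The *in vivo* libraries both lay below both *in vitro* libraries for 22 genes (56.4%, against 37.4%) and above them for 8 (20.5%, against 36.8%). Without *in vitro* replicate 2 of 2 weeks 1 gene was called lower and none higher.

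**Figure D2:**
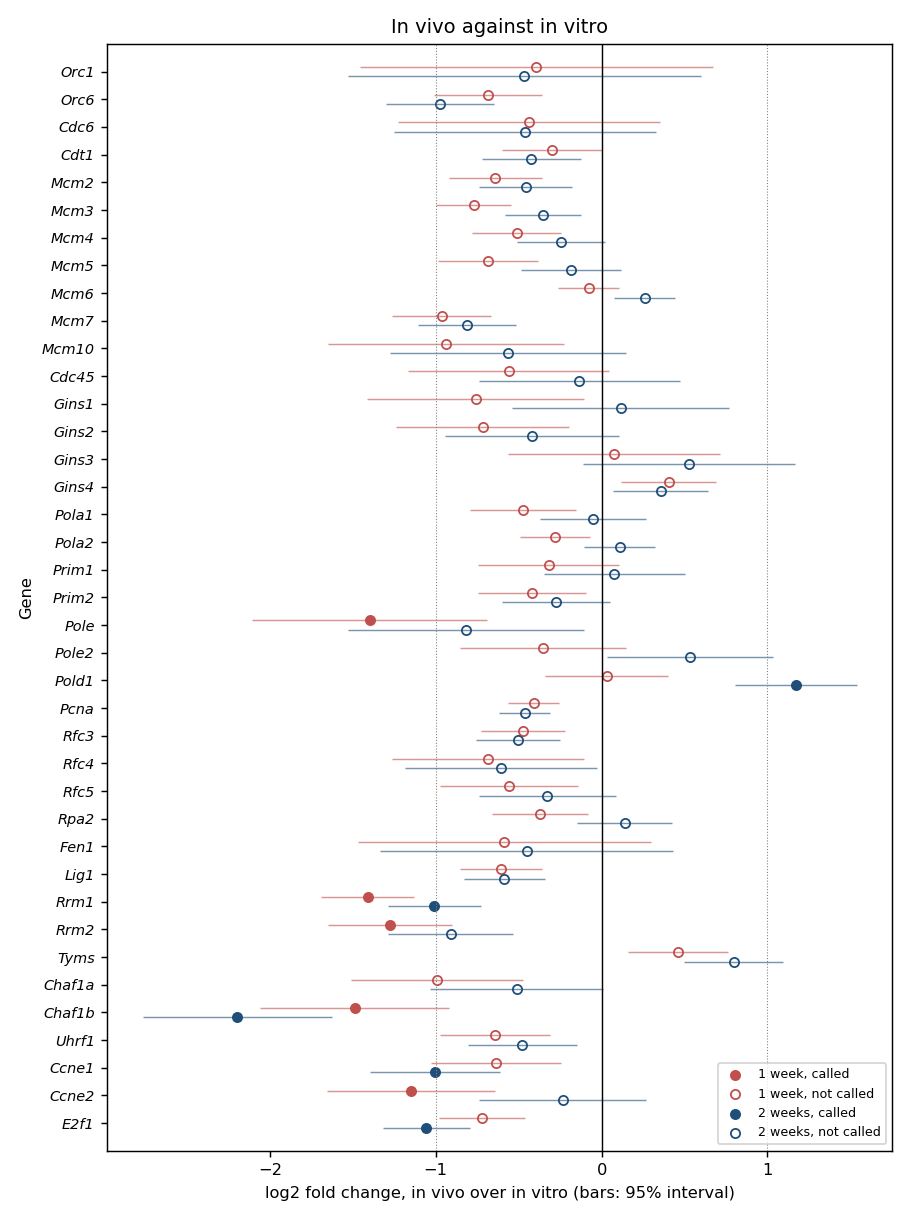
Log2 fold change in vivo over in vitro for each of the 39 genes at 1 week (red) and 2 weeks (blue), with bars for the 95% interval from limma and filled points for called genes. At 1 week 35 points lie left of 0, and at 2 weeks 29 do, with Pold1 the filled point on the right at 1.17.

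The scale behind the FPKM bears on these counts, because the deposited values were already scaled between libraries. Relative to its fragments on genes, the library size behind the FPKM was 0.863 to 0.915 *in vivo*, against 1.09 to 1.15 *in vitro*. The 10 most abundant genes of a library held 12.1% to 15.0% of its fragments *in vivo* and 6.03% to 7.30% *in vitro*. Set to a common mean, the library sizes were 0.994 to 1.004 times those of median-ratio scaling, which levels the typical gene between libraries. With that scaling undone, the median log2 fold change of all genes was -0.34 in the first comparison and -0.33 in the second, and that of the replication genes was -0.89 and -0.72. The share of higher genes among all called was then 36.7% in place of 60.6% at 1 week, and 32.9% in place of 52.8% at 2 weeks. The replication genes kept a lower median than all genes on either scale, while *Pold1* and *Gins3* at 1 week and *Mcm6*, *Gins1*, *Pola2*, *Prim1* and *Rpa2* at 2 weeks changed sign.

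Because many of these genes are E2F targets, their promoters were read for E2F letters. RefSeq promoter sequences on GRCm38.p6, from 250 bases before to 50 after each start, were held for 32 of the 39 genes. Each was searched on both strands for TTTCCCGC, TTTCGCGC, TTTGCCGC and TTTGGCGC, which can overlap each other on opposite strands. A match was present for 14 of the 32 genes (43.8%), against 4.49% of the 10661 tested genes with a promoter in that set and 2.61% of all 27025. For the letters CCAAT the share was 59.4%, against 42.4% of tested genes, and for TTTGAA, found in promoters of G2/M genes, it was 12.5%, against 14.3%. Among the other replication genes described below E2F letters were in 33.3% of 51, and among G2/M genes in 5.88% of 17.

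The promoters of *Pold1*, *Mcm7*, *Mcm3* and *Mcm5* are the 4 with E2F letters whose genes had the largest absolute log2 fold change *in vivo* against *in vitro* at either week, and that of *Chaf1b*, the gene with the largest such value, held none. They are shown 5′ to 3′ on the strand of the gene in lower case, with the E2F letters of either strand in capitals.
Pold1, chr7:44548766-44549065, - strand: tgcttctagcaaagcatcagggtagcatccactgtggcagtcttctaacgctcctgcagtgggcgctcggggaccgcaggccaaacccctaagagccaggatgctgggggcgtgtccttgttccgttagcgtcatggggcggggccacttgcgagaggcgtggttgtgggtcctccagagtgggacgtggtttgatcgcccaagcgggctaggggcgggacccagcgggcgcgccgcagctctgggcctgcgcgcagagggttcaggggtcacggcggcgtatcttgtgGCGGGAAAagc
Mcm7, chr5:138171834-138172133, - strand: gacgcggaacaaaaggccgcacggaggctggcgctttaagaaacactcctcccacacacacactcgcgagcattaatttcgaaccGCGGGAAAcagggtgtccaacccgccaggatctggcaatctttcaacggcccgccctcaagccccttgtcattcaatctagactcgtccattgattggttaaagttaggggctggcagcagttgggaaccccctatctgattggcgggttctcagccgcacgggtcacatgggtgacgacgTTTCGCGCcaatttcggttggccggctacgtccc
Mcm3, chr1:20820263-20820562, - strand: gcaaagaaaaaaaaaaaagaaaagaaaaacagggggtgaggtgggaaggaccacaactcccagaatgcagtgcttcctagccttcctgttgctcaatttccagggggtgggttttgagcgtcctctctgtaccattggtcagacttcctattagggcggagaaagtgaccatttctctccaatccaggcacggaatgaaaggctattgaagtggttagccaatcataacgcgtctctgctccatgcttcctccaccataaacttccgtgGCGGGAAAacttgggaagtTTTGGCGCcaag
Mcm5, chr8:75109259-75109558, + strand: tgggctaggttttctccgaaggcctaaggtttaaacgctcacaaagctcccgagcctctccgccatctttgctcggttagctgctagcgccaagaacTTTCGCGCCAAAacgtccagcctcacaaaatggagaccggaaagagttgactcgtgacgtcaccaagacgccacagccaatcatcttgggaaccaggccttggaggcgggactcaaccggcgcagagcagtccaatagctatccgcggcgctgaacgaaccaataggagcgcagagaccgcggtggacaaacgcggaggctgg
Chaf1b, chr16:93883651-93883950, + strand: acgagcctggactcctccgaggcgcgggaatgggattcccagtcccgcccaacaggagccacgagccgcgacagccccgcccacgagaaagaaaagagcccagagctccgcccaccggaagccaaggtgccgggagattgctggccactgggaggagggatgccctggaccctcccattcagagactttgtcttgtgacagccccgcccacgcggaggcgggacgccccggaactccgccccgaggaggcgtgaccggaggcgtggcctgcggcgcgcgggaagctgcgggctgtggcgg
*Pold1* was the gene called higher *in vivo* at 2 weeks, and the 3 MCM genes were on the lower side at both weeks, so promoters with these letters stood on both sides. The *Mcm7* promoter shown is that of 1 of its 2 starts in RefSeq, and the other held no match. The *Mcm5* capitals are 2 overlapping matches on opposite strands.

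Of the 4 origin licensing genes, *Orc6* passed the looser count at both weeks, lower *in vivo*. *Orc6* (ENSMUSG00000031697, chromosome 8 from 85299632 to 85308278, + strand), the smallest subunit of the origin recognition complex, had an FPKM of 10.2 and 8.14 *in vitro* and 5.95 and 5.32 *in vivo* at 1 week, and 8.90 and 9.56 *in vitro* and 4.27 and 5.06 *in vivo* at 2 weeks. Both *in vivo* libraries lay below both *in vitro* libraries at each week, and the *in vitro* groups overlapped each other. Its log2 fold change was -0.69 ± 0.138 (SE) at 1 week (adjusted p = 0.0069 by limma after Benjamini-Hochberg adjustment) and -0.97 ± 0.138 (SE) at 2 weeks (adjusted p = 0.0012), within the fold limit of a call. *Orc6* shares 6.93% of its exon bases with *Vps35* on the other strand, which had an FPKM of 14.9 to 30.7. Whether the counting used strand is not given in the sources used here. *Cdt1*, the MCM loading factor, had 5.38 and 5.52 *in vitro* and 4.57 and 4.25 *in vivo* at 1 week and 3.32 and 3.93 *in vitro* and 2.91 and 2.45 *in vivo* at 2 weeks. Its log2 fold change was -0.30 at 1 week (adjusted p = 0.10) and -0.42 at 2 weeks (adjusted p = 0.029 by limma). *Cdc6*, its loading partner, had log2 fold changes of -0.44 and -0.46 that passed neither count, and *Orc1*, with 12 to 63 fragments a library, overlapped between *in vivo* and *in vitro* at both weeks.

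All 6 MCM subunits had negative log2 fold changes at 1 week, with a median of -0.66, where 7920 of the 15708 genes tested were negative. At the looser count 5 of the 6 were lower (against 20.6% of all genes). *Mcm7* (ENSMUSG00000029730, chromosome 5 from 138164583 to 138172422, - strand) differed most, with an FPKM of 10.6 and 10.3 *in vitro* and 5.02 and 5.64 *in vivo* at 1 week, and 6.97 and 6.76 *in vitro* and 3.42 and 4.38 *in vivo* at 2 weeks. The 4 groups did not overlap for *Mcm7*, and the *in vivo* groups were the lowest. Its log2 fold change was -0.96 ± 0.126 (SE) at 1 week and -0.81 ± 0.126 (SE) at 2 weeks (adjusted p = 0.0010 and 0.0018 by limma after Benjamini-Hochberg adjustment). On the other strand *Mcm7* shares 7.25% of its exon bases with *Ap4m1*, at 1.74 to 3.35 FPKM, and 1.45% with *Cops6*, at 25.1 to 32.9 FPKM. *Mcm6* (ENSMUSG00000026355, chromosome 1 from 128331590 to 128359664, - strand) went another way, with 14.1 and 15.1 *in vitro* and 13.8 and 13.9 *in vivo* at 1 week, and 8.01 and 8.89 *in vitro* and 9.95 and 10.3 *in vivo* at 2 weeks. At 1 week its *in vivo* values were just under the *in vitro* ones (log2 fold change -0.08 ± 0.0769 (SE), adjusted p = 0.45 by limma), and at 2 weeks they were above them (0.26 ± 0.0769 (SE), adjusted p = 0.028), though below them at -0.068 without the scaling between libraries. The ring takes 1 copy of each subunit, and per length *Mcm2* was the lowest of the 6 in all 8 libraries, while *Mcm6* was the highest in 6 and *Mcm3* and *Mcm4* in 1 each. The highest subunit was 2.45 to 2.76 times the lowest in the *in vitro* libraries and 3.43 to 4.71 times *in vivo*. *Mcm2*, *Mcm3* and *Mcm7* were lower at the looser count at both weeks, and *Mcm4* and *Mcm5* at 1 week.

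Among the 6 helicase activation genes, *Gins4* stood higher *in vivo* at both weeks. *Gins4* (ENSMUSG00000031546, chromosome 8 from 23226616 to 23237659, - strand), a subunit of the GINS complex that joins CDC45 and MCM, had an FPKM of 15.5 and 13.6 *in vitro* and 18.2 and 20.3 *in vivo* at 1 week, and 12.3 and 13.9 *in vitro* and 18.4 and 15.3 *in vivo* at 2 weeks. The *in vivo* libraries both lay above both *in vitro* libraries at each week. The log2 fold change was 0.40 ± 0.120 (SE) and 0.36 ± 0.120 (SE) (adjusted p = 0.033 and 0.044 by limma after Benjamini-Hochberg adjustment), so *Gins4* passed the looser count only. The smallest *Gins4* log2 fold changes over the 22 alternative settings were 0.063 and 0.026, so the size of its rise depended on the setting. The level of *Gins4* was 4.34 to 22.3 times that of any other GINS subunit in the same library. *Mcm10* (ENSMUSG00000026669, chromosome 2 from 4989714 to 5012791, - strand), which helps the helicase to start, had 1.5 and 1.12 *in vitro* and 0.633 and 0.629 *in vivo* at 1 week, and 0.367 and 0.478 *in vitro* and 0.311 and 0.20 *in vivo* at 2 weeks, from 17 to 178 fragments. It was lower *in vivo* at 1 week in both libraries, with a log2 fold change of -0.94 ± 0.301 (SE) (adjusted p = 0.042 by limma), and -0.56 ± 0.301 (SE) at 2 weeks (adjusted p = 0.16). *Gins2* was lower at 1 week at the looser count (-0.72), but 67.3% of its exon bases lie under *Gse1* on the other strand. *Cdc45*, *Gins1* and *Gins3* passed neither count at either week.

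The polymerase and primase genes held both a call lower *in vivo*, that of *Pole* at 1 week, and the call higher *in vivo*, that of *Pold1* at 2 weeks. *Pole* (ENSMUSG00000007080, chromosome 5 from 110286306 to 110337474, + strand), the catalytic subunit of the leading strand polymerase, had an FPKM of 1.30 and 1.51 *in vitro* and 0.436 and 0.502 *in vivo* at 1 week, and 0.428 and 0.679 *in vitro* and 0.230 and 0.300 *in vivo* at 2 weeks, from 29 to 251 fragments. Both *in vivo* libraries lay below both *in vitro* libraries at each week. It was 2.64-fold lower *in vivo* at 1 week (log2 fold change -1.40 ± 0.299 (SE), adjusted p = 0.0091 by limma after Benjamini-Hochberg adjustment), and its adjusted p at 2 weeks was 0.058 (-0.82 ± 0.299 (SE)). The 1 week call of *Pole* was lost in 13 of 22 alternative settings, over which the adjusted p ran from 0.00012 to 0.067. *Pold1* (ENSMUSG00000038644, chromosome 7 from 44532746 to 44548849, - strand), the catalytic subunit of the lagging strand polymerase, had 4.51 and 4.48 *in vitro* and 4.27 and 4.93 *in vivo* at 1 week, and 2.65 and 1.95 *in vitro* and 5.51 and 4.99 *in vivo* at 2 weeks. At 1 week the groups overlapped, and at 2 weeks both *in vivo* libraries lay above all 1 week libraries while both *in vitro* libraries lay below them. *Pold1* was 2.25-fold higher *in vivo* at 2 weeks (log2 fold change 1.17 ± 0.155 (SE), adjusted p = 0.00088 by limma). The call of *Pold1* was lost without *in vitro* replicate 2 of 2 weeks (log2 fold change 0.96), with a pseudocount of 1 (0.93) and without the scaling between libraries (0.85), in each case by the fold limit. The ratio of *Pold1* to *Pole* FPKM was 2.97 and 3.47 *in vitro* at 1 week, 2.88 and 6.19 *in vitro* at 2 weeks, 9.79 and 9.82 *in vivo* at 1 week, and 16.6 and 23.9 *in vivo* at 2 weeks.

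*Pola2* (ENSMUSG00000024833, chromosome 19 from 5940543 to 5964206, - strand), the accessory subunit of the primase polymerase, had 6.29 and 5.99 *in vitro* and 4.97 and 5.10 *in vivo* at 1 week, and 4.48 and 4.02 *in vitro* and 4.50 and 4.67 *in vivo* at 2 weeks. Its libraries separated at both weeks, lower *in vivo* at 1 week (-0.28 ± 0.0899 (SE), adjusted p = 0.042 by limma) and just above *in vitro* at 2 weeks without passing either count (0.11 ± 0.0899 (SE), adjusted p = 0.35). *Pola1* and *Prim2*, of the same complex, were lower *in vivo* at 1 week at the looser count, with log2 fold changes of -0.47 and -0.42. *Prim1* and *Pole2* passed neither count at 1 week (-0.32 and -0.35) or at 2 weeks (0.08 and 0.53).

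*Pcna* (ENSMUSG00000027342, chromosome 2 from 132249162 to 132253314, - strand), the sliding clamp that holds polymerases on DNA, was the most abundant of the 39 genes, at 19.5% to 27.6% of their summed FPKM. It had 55.3 and 54.7 *in vitro* and 42.3 and 40.4 *in vivo* at 1 week, and 48.6 and 52.8 *in vitro* and 37.8 and 35.6 *in vivo* at 2 weeks. Both *in vivo* groups lay below both *in vitro* groups, with log2 fold changes of -0.41 ± 0.0651 (SE) at 1 week and -0.46 ± 0.0651 (SE) at 2 weeks (adjusted p = 0.0025 and 0.0011 by limma after Benjamini-Hochberg adjustment). The pseudogene *Pcna-ps1* was listed at 0 in all libraries. *Rfc4* (ENSMUSG00000022881, chromosome 16 from 23113943 to 23127737, - strand), a clamp loader subunit, had 4.58 and 5.33 *in vitro* and 3.90 and 2.35 *in vivo* at 1 week, and 3.58 and 3.07 *in vitro* and 2.43 and 1.89 *in vivo* at 2 weeks. The *in vivo* libraries were below the *in vitro* ones at each week but spread widely at 1 week, and the log2 fold changes of -0.69 ± 0.244 (SE) and -0.61 ± 0.244 (SE) passed neither count (adjusted p = 0.060 and 0.077 by limma). *Rfc4* shares 12.7% of its exon bases with *Eif4a2* on the other strand, which had an FPKM of 44.5 to 86.3. *Rfc3* was lower *in vivo* at both weeks at the looser count (-0.47 and -0.51), and *Rfc5* and *Rpa2* at 1 week (-0.56 and -0.37). *Rfc5* shares 10.7% of its exon bases with *Wsb2* on the other strand, which had an FPKM of 16.5 to 26.4.

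*Lig1* (ENSMUSG00000056394, chromosome 7 from 13277283 to 13311433, + strand), the ligase that seals Okazaki fragments, had 7.88 and 7.89 *in vitro* and 5.52 and 4.78 *in vivo* at 1 week, and 5.03 and 5.13 *in vitro* and 3.16 and 3.56 *in vivo* at 2 weeks. The *in vivo* libraries both lay below both *in vitro* libraries at each week, though the *in vivo* 1 week and *in vitro* 2 week libraries overlapped. The log2 fold change was -0.61 ± 0.104 (SE) at 1 week and -0.59 ± 0.104 (SE) at 2 weeks (adjusted p = 0.0035 and 0.0033 by limma). *Fen1*, the flap nuclease of the same step, had 0.885 and 0.940 *in vitro* and 0.494 and 0.666 *in vivo* at 1 week and 0.687 and 0.364 *in vitro* and 0.256 and 0.449 *in vivo* at 2 weeks, from 7 to 34 fragments, and passed neither count. On the other strand 78.8% of its exon bases lie under *Gm10143*, at 0.0272 to 0.213 FPKM, and 5.37% under *Tmem258*, at 17.7 to 24.4 FPKM.

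The 3 nucleotide supply genes differed in direction. *Rrm1* (ENSMUSG00000030978, chromosome 7 from 102441695 to 102469771, + strand), the large subunit of ribonucleotide reductase, had 19.7 and 16.9 *in vitro* and 6.32 and 7.35 *in vivo* at 1 week, and 8.55 and 9.80 *in vitro* and 4.37 and 4.64 *in vivo* at 2 weeks. Both *in vivo* libraries lay below both *in vitro* libraries at each week, and the *in vivo* 1 week libraries were also below the *in vitro* 2 week ones. *Rrm1* was 2.66-fold lower *in vivo* at 1 week and 2.01-fold lower at 2 weeks (log2 fold change -1.41 ± 0.118 (SE) and -1.01 ± 0.118 (SE), adjusted p = 0.00013 and 0.00049 by limma after Benjamini-Hochberg adjustment). Its 1 week call held in all 22 alternative settings, and that at 2 weeks was lost in 5 of them. *Rrm2* (ENSMUSG00000020649, chromosome 12 from 24708241 to 24714146, + strand), the small subunit, had 14.2 and 14.5 *in vitro* and 6.16 and 5.60 *in vivo* at 1 week, and 5.35 and 5.57 *in vitro* and 3.42 and 2.39 *in vivo* at 2 weeks. It was 2.42-fold lower *in vivo* at 1 week (-1.28 ± 0.158 (SE), adjusted p = 0.00081 by limma), a call that also held in all 22, and 1.88-fold lower at 2 weeks, under the fold limit of a call (-0.91 ± 0.158 (SE), adjusted p = 0.0030). *Tyms* (ENSMUSG00000025747, chromosome 5 from 30058202 to 30073617, - strand), thymidylate synthase, went the other way, with 3.38 and 2.99 *in vitro* and 4.39 and 4.44 *in vivo* at 1 week, and 1.84 and 2.05 *in vitro* and 3.19 and 3.73 *in vivo* at 2 weeks. The *in vivo* libraries both lay above both *in vitro* libraries at each week. The log2 fold changes were 0.46 ± 0.126 (SE) and 0.80 ± 0.126 (SE) (adjusted p = 0.024 and 0.0020 by limma). Their smallest values over the 22 alternative settings were 0.127 and 0.477. The ratio of *Tyms* to *Rrm2* FPKM ran from 0.206 and 0.238 *in vitro* at 1 week, through 0.344 and 0.368 *in vitro* at 2 weeks and 0.712 and 0.793 *in vivo* at 1 week, to 0.931 and 1.56 *in vivo* at 2 weeks.

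All 3 genes that rebuild chromatin or its methylation were lower *in vivo* at 1 week at the looser count (against 20.6% of all genes), and *Chaf1b* had the largest difference of the 39. *Chaf1b* (ENSMUSG00000022945, chromosome 16 from 93883901 to 93906115, + strand), a subunit of the chromatin assembly factor that sets histones on new DNA, had 3.58 and 3.16 *in vitro* and 1.35 and 0.951 *in vivo* at 1 week, and 2.50 and 2.86 *in vitro* and 0.625 and 0.406 *in vivo* at 2 weeks. Both *in vivo* groups lay below both *in vitro* groups. It was 2.81-fold lower at 1 week and 4.58-fold lower at 2 weeks (log2 fold change -1.49 ± 0.239 (SE) and -2.20 ± 0.239 (SE), adjusted p = 0.0027 and 0.00035 by limma after Benjamini-Hochberg adjustment). The 2 week call of *Chaf1b* held in all 22 alternative settings, and the 1 week call was lost in 3. *Chaf1a*, its partner, had 1.94 and 2.57 *in vitro* and 1.13 and 1.02 *in vivo* at 1 week, and 0.923 and 0.714 *in vitro* and 0.560 and 0.522 *in vivo* at 2 weeks. The log2 fold change of *Chaf1a* was -0.99 ± 0.220 (SE) at 1 week and -0.51 ± 0.220 (SE) at 2 weeks (adjusted p = 0.010 and 0.094 by limma), and 52.5% of its exon bases lie under *Ubxn6* on the other strand. Per length, *Chaf1b* was 2.71 and 4.0 times *Chaf1a* *in vitro* at 2 weeks and 0.779 and 1.11 times it *in vivo* at 2 weeks. *Uhrf1* (ENSMUSG00000001228, chromosome 17 from 56303321 to 56323486, + strand), which brings the maintenance methyltransferase to newly copied DNA, had 8.37 and 8.49 *in vitro* and 5.17 and 5.57 *in vivo* at 1 week, and 2.77 and 3.04 *in vitro* and 1.79 and 2.36 *in vivo* at 2 weeks. Its 4 groups did not overlap, and its log2 fold change was -0.64 ± 0.139 (SE) and -0.48 ± 0.139 (SE) (adjusted p = 0.0096 and 0.026 by limma).

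The 3 G1/S regulators were on the lower side *in vivo* at both weeks. *E2f1* (ENSMUSG00000027490, chromosome 2 from 154559407 to 154569892, - strand), the transcription factor of this gene program, had 11.3 and 11.0 *in vitro* and 7.37 and 6.11 *in vivo* at 1 week, and 7.84 and 8.88 *in vitro* and 3.99 and 3.93 *in vivo* at 2 weeks. The 4 groups did not overlap, and both *in vivo* groups were below both *in vitro* groups. *E2f1* was 1.65-fold lower at 1 week and 2.08-fold lower at 2 weeks (log2 fold change -0.72 ± 0.110 (SE) and -1.06 ± 0.110 (SE), adjusted p = 0.0021 and 0.00029 by limma after Benjamini-Hochberg adjustment). *Ccne1* (ENSMUSG00000002068, chromosome 7 from 38097984 to 38107534, - strand), cyclin E1, had 3.95 and 3.55 *in vitro* and 2.53 and 2.22 *in vivo* at 1 week, and 2.20 and 1.96 *in vitro* and 0.865 and 1.12 *in vivo* at 2 weeks. It was lower *in vivo* at both weeks, 1.55-fold at 1 week (-0.64 ± 0.164 (SE), adjusted p = 0.019 by limma) and 2.0-fold at 2 weeks (-1.0 ± 0.164 (SE), adjusted p = 0.0023), the latter at the edge of the fold limit and lost in 6 of 22 settings. *Ccne2* (ENSMUSG00000028212, chromosome 4 from 11191351 to 11204779, + strand), cyclin E2, had 3.03 and 2.80 *in vitro* and 1.22 and 1.30 *in vivo* at 1 week, and 0.931 and 1.28 *in vitro* and 0.786 and 1.06 *in vivo* at 2 weeks. It was 2.22-fold lower *in vivo* at 1 week (-1.15 ± 0.212 (SE), adjusted p = 0.0049 by limma), and at 2 weeks the groups overlapped (-0.24 ± 0.212 (SE), adjusted p = 0.39). The 1 week call of *Ccne2* was lost in 6 of 22 settings, with an adjusted p of up to 0.036 by limma, and the 2 week call of *E2f1* in 2. *Ccne2* shares 17.4% of its exon bases with *Ints8* on the other strand.

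The 12 genes listed as brakes on the cycle or as G1 cyclins, which act upstream of E2F, were on both sides. At 1 week 3 were called lower *in vivo* (25%, against 5.07% of all genes) and none higher, with 6 lower (50%, against 20.6%) and 2 higher (16.7%, against 21.4%) at the looser count. At 2 weeks 3 were called lower (25%, against 8.05%) and none higher, with 5 lower (41.7%, against 25.2%) and 1 higher (8.33%, against 24.6%) at the looser count. Of the D cyclins, which start the release of E2F, *Ccnd2* and *Ccnd1* were called lower *in vivo* at both weeks and *Ccnd3* was called at neither. *Ccnd2* had 65.3 and 61.6 *in vitro* and 14.9 and 16.5 *in vivo* at 1 week, and 34.0 and 36.6 *in vitro* and 15.5 and 15.3 *in vivo* at 2 weeks, with log2 fold changes of -2.01 ± 0.0745 (SE) and -1.19 ± 0.0745 (SE) (adjusted p = 3.9e-06 and 2.9e-05 by limma after Benjamini-Hochberg adjustment). *Ccnd1* had 29.1 and 31.1 *in vitro* and 12 and 10.5 *in vivo* at 1 week, and 25.0 and 26.6 *in vitro* and 9.07 and 8.40 *in vivo* at 2 weeks, with -1.41 ± 0.0887 (SE) and -1.55 ± 0.0887 (SE) (adjusted p = 3.8e-05 and 2.0e-05 by limma). For both cyclins every *in vivo* library lay below every *in vitro* library. *Cdkn2a*, whose products p16 and p19ARF restrain the cycle, was lower *in vivo* too, with 23.6 and 21.9 *in vitro* and 6.12 and 7.07 *in vivo* at 1 week, and 29.8 and 31.6 *in vitro* and 5.74 and 7.49 *in vivo* at 2 weeks and log2 fold changes of -1.77 ± 0.134 (SE) and -2.21 ± 0.134 (SE) (adjusted p = 8.4e-05 and 2.5e-05 by limma). *Cdkn1a*, p21, was lower *in vivo* at the looser count (-0.55 and -0.54), and *Cdkn1b*, p27, was higher (0.41 and 0.46). The other gene higher *in vivo* at the looser count at 1 week was *Cdkn1c*, p57 (0.66). *Cdkn1c* was also the gene of this list called over time, higher *in vitro* at 2 weeks than at 1 week (1.37 ± 0.192 (SE), adjusted p = 0.0041 by limma), with 2.10 and 1.67 at 1 week and 5.21 and 4.80 at 2 weeks. *In vivo* it had 2.60 and 3.5 and 5.82 and 7.46, with a log2 fold change of 1.1 ± 0.192 (SE) (adjusted p = 0.013 by limma).

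**Figure D3:**
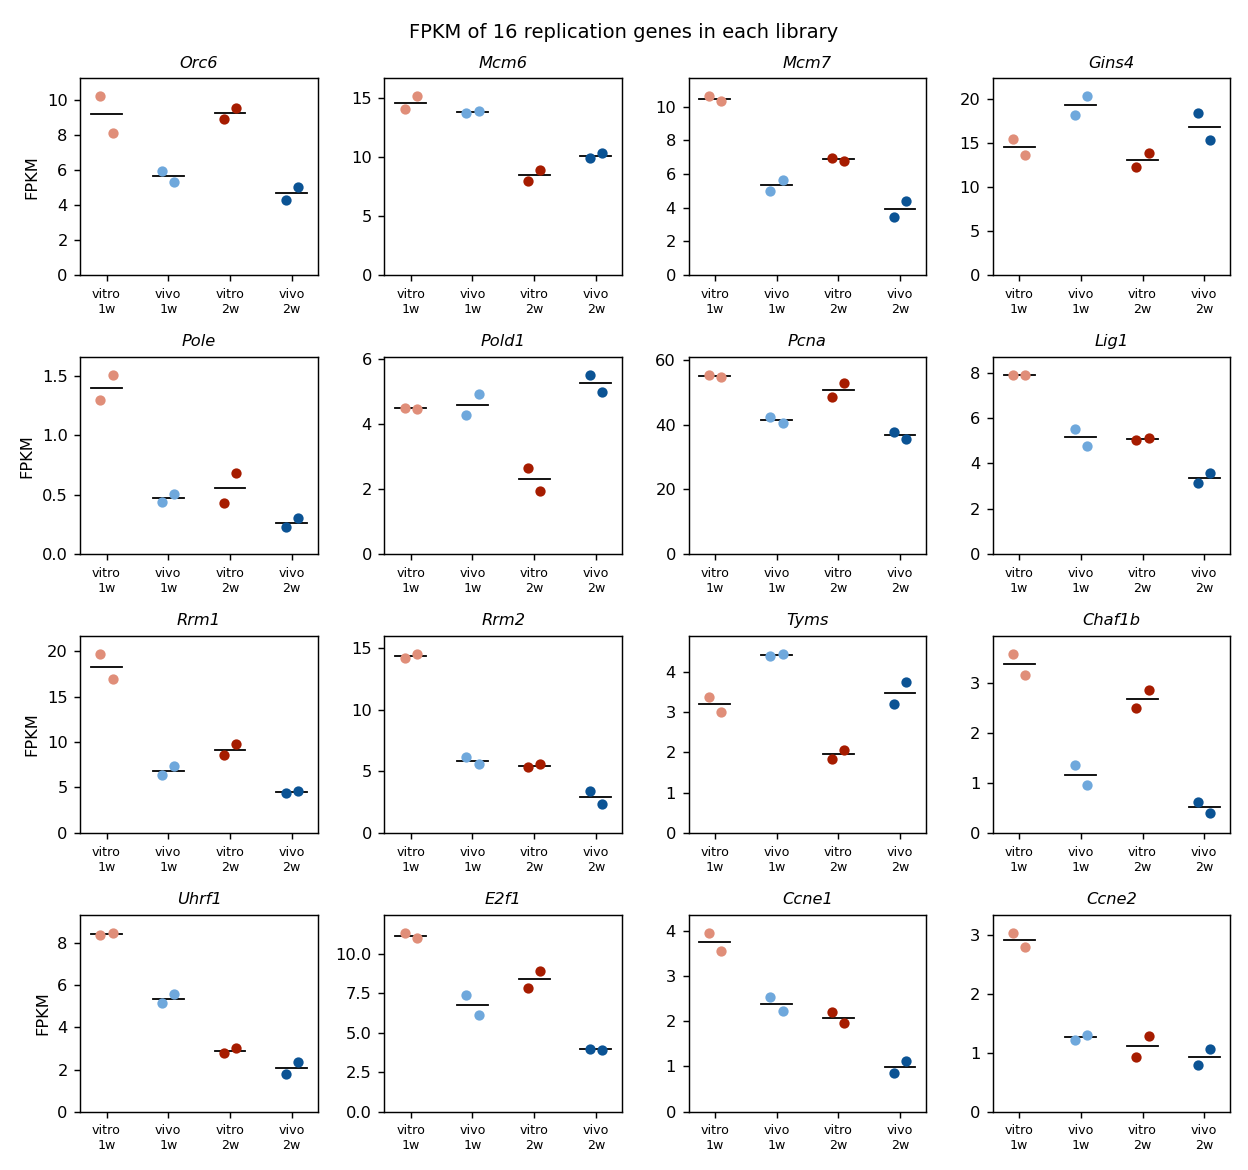
FPKM of 16 of the 39 genes in each of the 8 libraries (points, 2 per group) with the group mean (black line), on linear axes from 0, for in vitro and in vivo at 1 week (1w) and 2 weeks (2w). Rrm1, Chaf1b and E2f1 lie lower in vivo at both weeks, Tyms and Gins4 lie higher in vivo at both weeks, and Pold1 is lower only in vitro at 2 weeks.

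The comparison of 2 weeks with 1 week used the same libraries, so it shares its samples with the comparisons above. In culture, 38 of 39 genes had a negative log2 fold change over time, with a median of -0.78 (1.72-fold lower) beside 0.016 over all genes tested. *Mcm5*, *Rrm2*, *Chaf1a*, *Uhrf1* and *Ccne2* were called lower at 2 weeks (12.8%, where 1.05% of all genes tested were), and none was higher by limma, by limma voom or at an unadjusted p under 0.05 (2.76% of all genes were called higher). At the looser count 29 were lower (74.4%, against 11.0%) and none was higher (against 14.1%). Both 2 week libraries lay below both 1 week libraries for 35 genes (89.7%, against 31.4%), the exceptions being *Orc1*, *Orc6*, *Gins3* and *Gins4*. Leaving out any of the 4 *in vitro* libraries brought the looser count to between 13 and 16. The calls of *Ccne2*, *Chaf1a*, *Rrm2* and *Uhrf1* *in vitro* were lost in 11, 10, 4 and 1 of 22 alternative settings, and that of *Mcm5* in none. The count of called genes was 1 without replicate 2 of the *in vitro* 1 week libraries, and 2 or 3 when any other *in vitro* library or either *in vivo* library of 1 week was left out. *Mcm5* (ENSMUSG00000005410, chromosome 8 from 75109569 to 75128439, + strand), an MCM subunit, and *Uhrf1* had the largest values. In culture *Mcm5* stood at 10.1 and 10.2 FPKM in the 1 week libraries and 3.35 and 3.65 in the 2 week libraries. The log2 fold changes were -1.51 ± 0.128 (SE) for *Mcm5* and -1.51 ± 0.139 (SE) for *Uhrf1* (adjusted p = 0.00069 and 0.00090 by limma). *Cdc6*, *Mcm10* and *Gins1* had values of similar size with wider errors, -1.34 ± 0.333 (SE), -1.43 ± 0.301 (SE) and -1.30 ± 0.277 (SE), and passed the looser count only. *Pcna* (-0.12 ± 0.0651 (SE), adjusted p = 0.23) and *Orc6* (0.02 ± 0.138 (SE), adjusted p = 0.95 by limma) were not past either count.

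In the transplanted cells 36 of 39 genes had a negative log2 fold change from 1 to 2 weeks, with a median of -0.48 (1.40-fold lower) beside -0.0033 over all genes tested. *Mcm5*, *Rrm2*, *Uhrf1* and *Ccne1* were called lower at 2 weeks (10.3%, where 0.949% of all genes tested were), and none was higher by limma, by limma voom or at an unadjusted p under 0.05 (1.23% of all genes were called higher). At the looser count 15 were lower (38.5%, against 7.17%) and none was higher (against 8.59%). Both 2 week libraries lay below both 1 week libraries for 31 genes (79.5%, against 28.9%) and above them for 1, *Pold1*. The looser count was 5 without replicate 1 of the *in vivo* 1 week libraries and 9 without replicate 2, and no gene was called when either was left out. With any 1 of the 4 *in vitro* libraries left out 1 gene was called, and without *in vivo* replicate 2 of 2 weeks 2 were. The calls of *Mcm5*, *Ccne1* and *Rrm2* *in vivo* were lost in 12, 12 and 13 of 22 alternative settings, and that of *Uhrf1* in 3. *Mcm5* went from 6.10 and 6.44 at 1 week to 3.48 and 2.70 at 2 weeks (-1.01 ± 0.128 (SE), adjusted p = 0.0045 by limma), and *Uhrf1* fell 2.54-fold (-1.34 ± 0.139 (SE), adjusted p = 0.0022). *Ccne1* fell 2.28-fold (-1.19 ± 0.164 (SE), adjusted p = 0.0061 by limma). *Cdc6* went from 1.16 and 0.895 to 0.339 and 0.329, with 71 and 61 fragments at 1 week and 20 and 19 at 2 weeks (-1.37 ± 0.333 (SE), adjusted p = 0.036 by limma). *Chaf1b* had a log2 fold change of -1.03 ± 0.239 (SE) over time *in vivo* (adjusted p = 0.032) and -0.32 ± 0.239 (SE) *in vitro* (adjusted p = 0.37 by limma).

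**Figure D4:**
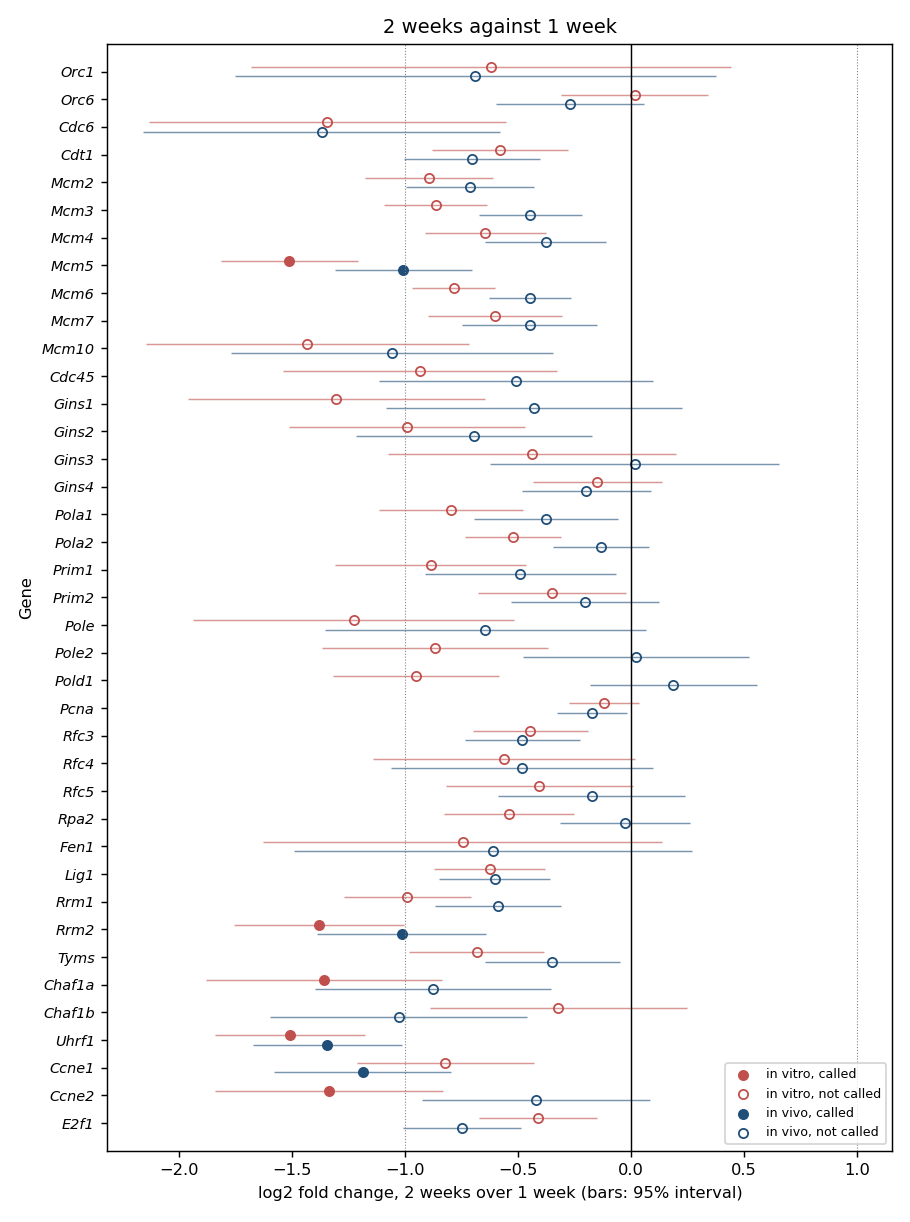
Log2 fold change at 2 weeks over 1 week for each of the 39 genes in vitro (red) and in vivo (blue), with bars for the 95% interval from limma and filled points for called genes. In vitro 38 points lie left of 0 and in vivo 36 do. Mcm5, Rrm2 and Uhrf1 are filled in both.

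Whether the *in vivo* difference itself changed between the weeks was tested as an interaction. Its log2 value was above 0 for 29 of 39 genes, with a median of 0.30 beside -0.0085 over all genes tested. By limma no gene was called higher (0.573% of all genes were) or lower (1.15% were). At an unadjusted p under 0.05 by limma, 9 were on the higher side and none on the lower. Over both sides 4233 of the 15708 genes tested had such a p. *Pold1* was the only replication gene at the looser count on the higher side (2.56%, against 3.85%), with 1.14 ± 0.220 (SE) and an adjusted p of 0.025 by limma after Benjamini-Hochberg adjustment, and none was on the lower (against 6.07%). By limma voom 1 gene, *Pold1*, was called. Over the alternative settings the adjusted p of *Pold1* ran from 0.0029 to 0.087. The next largest values were those of *Ccne2* (0.91 ± 0.300 (SE), adjusted p = 0.11 by limma), *Pole2* (0.89 ± 0.298 (SE), adjusted p = 0.11) and *Gins1* (0.87 ± 0.391 (SE), adjusted p = 0.21), none past either count. *Chaf1b* had the lowest, -0.71 ± 0.339 (SE) (adjusted p = 0.23 by limma).

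A wider list of 64 other tested replication genes lay in the same order, with group medians nearer 100%. The list holds further subunits of the same complexes and factors of licensing, nucleotide supply and fork protection. Its median level was 73.2% and 79.1% of the *in vitro* 1 week mean *in vivo* at 1 week, 68.2% and 67.3% *in vitro* at 2 weeks and 64.6% and 62.7% *in vivo* at 2 weeks. At 1 week 6 of the 64 were called lower *in vivo* (9.38%, against 5.07% of all genes) and none higher, with 22 lower (34.4%, against 20.6%) and 3 higher (4.69%, against 21.4%) at the looser count and a median of -0.39. At 2 weeks 6 were called lower (9.38%, against 8.05%) and none higher, with 12 lower (18.8%, against 25.2%) and 7 higher (10.9%, against 24.6%) at the looser count and a median of -0.05. At 2 weeks its share of called lower genes was thus near that over all genes, and its looser share was under it. From 1 to 2 weeks 9 were called lower *in vitro* (14.1%, against 1.05%) and 2 *in vivo* (3.12%, against 0.949%). The largest difference between *in vivo* and *in vitro* was that of *E2f8*, an E2F family repressor, with 2.28 and 3.01 *in vitro* and 0.894 and 0.888 *in vivo* at 1 week, and 1.78 and 1.80 *in vitro* and 0.260 and 0.299 *in vivo* at 2 weeks. Its log2 fold change was -1.46 ± 0.197 (SE) at 1 week and -2.32 ± 0.197 (SE) at 2 weeks (adjusted p = 0.0012 and 0.00011 by limma after Benjamini-Hochberg adjustment).

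*Ccna2*, cyclin A2, which drives S phase onward, had 8.99 and 9.31 *in vitro* and 3.81 and 3.5 *in vivo* at 1 week, and 3.61 and 3.82 *in vitro* and 1.35 and 0.843 *in vivo* at 2 weeks, and log2 fold changes of -1.30 and -1.71 (adjusted p = 0.0018 and 0.00041 by limma). *Gmnn*, geminin, the inhibitor of CDT1, had 9.27 and 8.68 *in vitro* and 4.26 and 3.51 *in vivo* at 1 week, and 5.13 and 5.02 *in vitro* and 2.60 and 2.04 *in vivo* at 2 weeks, with -1.19 and -1.11 (adjusted p = 0.00070 and 0.00077 by limma). Both genes were lower *in vivo* in each library at each week. *Asf1b*, a histone chaperone, and *Shmt1*, an enzyme of the folate cycle, were also called lower at both weeks, with -1.39 and -1.31 for *Asf1b* and -1.54 and -1.09 for *Shmt1*. *Dbf4*, the activator of the CDC7 kinase, was called lower at 2 weeks (-1.56, adjusted p = 0.0020 by limma) and *Mcm8*, an MCM relative, at 1 week (-1.18, adjusted p = 0.0041). *Mcm8* stood at 0.786 and 0.706 *in vivo* and 0.817 and 0.771 *in vitro* at 2 weeks. *Ticrr*, with an FPKM of at most 0.756 in any library, was not called in either week.

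A list of 20 G2/M genes, which act after replication in mitosis, had medians further from 0 in each comparison than the replication genes. Its median level was 46.4% and 44.0% of the *in vitro* 1 week mean *in vivo* at 1 week, 53.2% and 44.9% *in vitro* at 2 weeks, and 14.3% and 13.8% *in vivo* at 2 weeks. All 20 were lower *in vivo* at the looser count at both weeks (against 20.6% and 25.2% of all genes), with medians of -1.12 and -1.56. Of them 12 were called at 1 week (60%, against 5.07%) and 19 at 2 weeks (95%, against 8.05%). From 1 to 2 weeks 9 were called lower *in vitro* (45%, against 1.05%) and 17 *in vivo* (85%, against 0.949%), with medians of -1.05 and -1.53. The interaction was negative for 18 of the 20, with a median of -0.53 and 1 gene called, *Ube2c*, whereas 29 of the 39 replication genes were above 0. No test compared the lists with each other. *Top2a*, the topoisomerase that untangles sister chromatids, had 13.5 and 14.6 *in vitro* and 6.04 and 5.66 *in vivo* at 1 week, and 5.21 and 5.0 *in vitro* and 1.84 and 1.31 *in vivo* at 2 weeks. *Ccnb1*, cyclin B1, had 7.67 and 7.13 *in vitro* and 2.31 and 2.97 *in vivo* at 1 week, and 4.06 and 3.33 *in vitro* and 0.777 and 0.515 *in vivo* at 2 weeks.

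**Figure D5:**
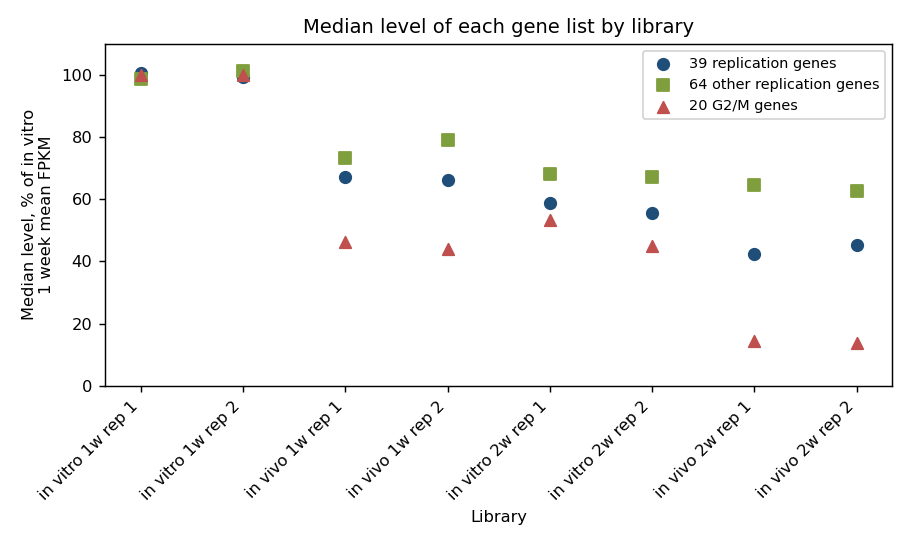
Median over the genes of each list of the FPKM in each library, as a percentage of the gene's mean in vitro at 1 week, for the 39 replication genes, 64 other replication genes and 20 G2/M genes. All 3 lists lie lowest in vivo at 2 weeks, where the medians are 42.5% and 45.2%, 64.6% and 62.7%, and 14.3% and 13.8%.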

How the data were processed

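RNA was measured from eGFP+ sorted cells in 8 libraries, 2 in each of 4 groups. The authors deposited FPKM per gene. Per the labels, reads were processed with CASAVA and HISAT2 2.0.5 on mm10, and the counting tool, annotation and use of strand are not given in the sources used here. Whole fragments could be recovered from every FPKM value (tolerance 0.01), and the library sizes behind them show scaling between libraries. The study's own test needs counts, so limma 3.58.1 (R 4.3.3, two-sided, with variance trend) was fitted here to log2(FPKM + 0.1) over 4 groups, for 15708 genes with at least 0.5 FPKM in 2 libraries, and tested on simulated data. Libraries of equal replicate number did not deviate together across genes (correlations of -0.0477 to -0.0107), which cannot show whether they shared infected cells. Values per library are given for the most abundant and the most different gene of each of 9 roles, and for other called genes, for *Cdt1*, *Fen1*, *Chaf1a* and *Tyms* and for some genes of the other lists, chosen after their values were seen. The genes and lists were chosen with earlier results of these data known. Alternatives changed the pseudocount, filter, scaling, libraries, gene set, block, variance trend, thresholds and model (limma voom on recovered fragments). Coordinates are those of the file, and 98.3% of the genes it shares with GENCODE vM21 have the same start and end there.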

Additional observations from a re-analysis of the deposited data

How the results depend on the processing

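Each count of called genes was recomputed under 22 alternatives, or 21 for the interaction, which needs all 4 groups. At 1 week the 5 genes lower *in vivo* became 3 with a pseudocount of 1, 3 with no filter, 12 without the scaling between libraries and 25, with 2 higher, at an adjusted p under 0.05 with no fold limit, and 2 to 4 with 1 library left out. At 2 weeks the 1 higher and 4 lower became 0 and 1 with a pseudocount of 1, 0 and 7 without the scaling, and 4 and 14 with no fold limit, the lower count was 2 with median-ratio scaling, and with 1 library left out the counts were 0 to 1 and 1 to 5. Calls over all genes moved too without the scaling. At 1 week they went from 2020, with 60.6% higher, to 2468, with 36.7% higher. At 2 weeks they went from 2682, with 52.8% higher, to 3126, with 32.9% higher. Over time *in vitro* the 5 lower became 3 with a pseudocount of 1, 3 with no filter, 8 with protein-coding genes, 10 with limma voom, 9 at an adjusted p under 0.05 with the fold limit, 29 without it, and 1 to 6 with 1 library left out. Over time *in vivo* the 4 lower became 1 with a pseudocount of 1, 1 with no filter, 0 in a fit of those 4 libraries alone, 1 without the variance trend, 15 with no fold limit, and 0 to 3 with 1 library left out. The interaction count of 0 higher became 1 with protein-coding genes, limma voom or an adjusted p under 0.05, and was 0 to 0 with 1 library left out. The cause of these moves was not tested. With the replicate number as a block the lower counts were 4 at 1 week, 4 at 2 weeks, 3 over time *in vitro* and 1 over time *in vivo*. Whether equal numbers mark shared cells is not given in the sources used here. No called gene changed direction. The lowest fragment count was 7, and 14 genes fell under 50 in some library, so differences of those genes are the least precise.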
